A study of Homo sapiens with 8 samples.

Results

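10 genes of epidermal growth factor receptor (EGFR) signalling are described here, read through every probe that could be paired with each: the receptor EGFR, 4 of its ligands (AREG, EREG, HBEGF and TGFA) and 5 feedback inhibitors of the RAS-ERK cascade (the phosphatases DUSP4, DUSP5 and DUSP6 and the Sprouty proteins SPRY2 and SPRY4). They were chosen by name, with earlier results of these data known. Of the 10, 9 are among the 15615 genes that could be paired with a probe. Illumina BeadChips were hybridised with RNA from MDA-LM2-shTARBP2 cells. These descend from MDA-MB-231, a human triple-negative breast cancer line, through selection for growth in the lung, and all of them also carry a hairpin against TARBP2, which encodes a partner of Dicer. Cells given lentiviral hairpins against the zinc finger factor ZNF395 (shZNF395, n = 4 arrays) were set against cells given a control hairpin (shControl, n = 4 arrays), both selected for the hairpin and both sampled at 48 h. The labels count that time from transfection although the hairpins were delivered by virus, and the controls are described as mock-transfected in the design text. Neither says how many different ZNF395 hairpins were used or that the replicates were separate cultures. The p-values therefore reflect only how far these samples differ among themselves, which may be technical spread.

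EGFR is a receptor tyrosine kinase that dimerises when it binds a ligand. Its ligands are made as membrane-bound precursors and are released by shedding proteases of the ADAM family. The receptor signals through RAS, RAF and MEK to the kinase ERK, and active ERK induces dual-specificity phosphatases and Sprouty proteins that turn the cascade down again. Epiregulin (EREG) has a known link to the growth of MDA-MB-231 derivatives in the lung.

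Median raw signal was 53.2 to 55.1 on the shZNF395 arrays and 53.8 to 57.1 on the shControl arrays, and the number of detected probes (detection p under 0.01) ran from 16476 to 17406 per array, of 47323. Arrays within a group correlated at r = 0.993 or more across probes, and arrays of different groups at 0.975 or less. The array numbered 3 stood apart in both groups by its number of detected probes, 17191 on shZNF395 3 against 16834 to 16882 on the other shZNF395 arrays, and 16476 on shControl 3 against 17265 to 17406 on the other shControl arrays. Results that rest on these arrays are given with and without them. ZNF395, the hairpin target, had log2 intensities of 9.06, 8.99, 9.22 and 9.06 on shZNF395 arrays 1 to 4, against 9.89, 9.81, 9.80 and 10.05 on shControl arrays 1 to 4. The log2 difference was -0.80 (limma SE 0.077, adjusted p = 1.01e-05), which leaves a signal 0.573 times that of shControl. TARBP2, the target of the hairpin that all samples carry, was higher in shZNF395 on its brighter probe, by 0.21 (SE 0.067, adjusted p = 0.0193), and gave 0.06 (adjusted p = 0.589) on its other probe; the part of this in the other results was not tested. CD44 and ZEB1, which mark mesenchymal breast cancer cells, were detected on all 8 arrays, while the luminal and epithelial markers ESR1, PGR, ERBB2 and CDH1 and the leukocyte markers PTPRC, TYROBP, ITGAM and CD3E were detected on 0 of 8. VIM, AXL, CAV1 and EPCAM could not be paired with a probe. Neither could a further transcript entry of ERBB2, so the reading of ERBB2 rests on a single probe.

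The receptor, 2 of its ligands and 1 Sprouty gene were higher in shZNF395 cells, and no gene of the 10 was called lower. After background correction, EREG rose 2.70-fold, TGFA 1.48-fold, SPRY2 1.32-fold and EGFR 1.18-fold. HBEGF, DUSP5 and DUSP6 were well detected on every array and did not pass the test. AREG and DUSP4 lay below detection on all 8 arrays, and SPRY4 could not be tied to a single probe, so these 3 genes were not tested. Of the 7 genes in the fit, each read by its brightest kept probe, 4 were thus higher (57.1%) and 0 lower with limma, at a Benjamini-Hochberg adjusted p under 0.05. Over all 17184 kept probes, those detected on at least 4 arrays, 25.3% were higher and 30.0% lower. The share called in either direction, 55.4% of all kept probes, was close to that of the 7 genes. The median log2 difference of the 7 genes was 0.24, against -0.05 over all kept probes. The shZNF395 and shControl values did not overlap for the same 4 genes, and for 49.0% of all kept probes. Because the genes were chosen with earlier results of these data known, these shares are descriptive only. In bulk RNA, less RNA per cell cannot be told apart from fewer cells of a kind.

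**Figure D1:**
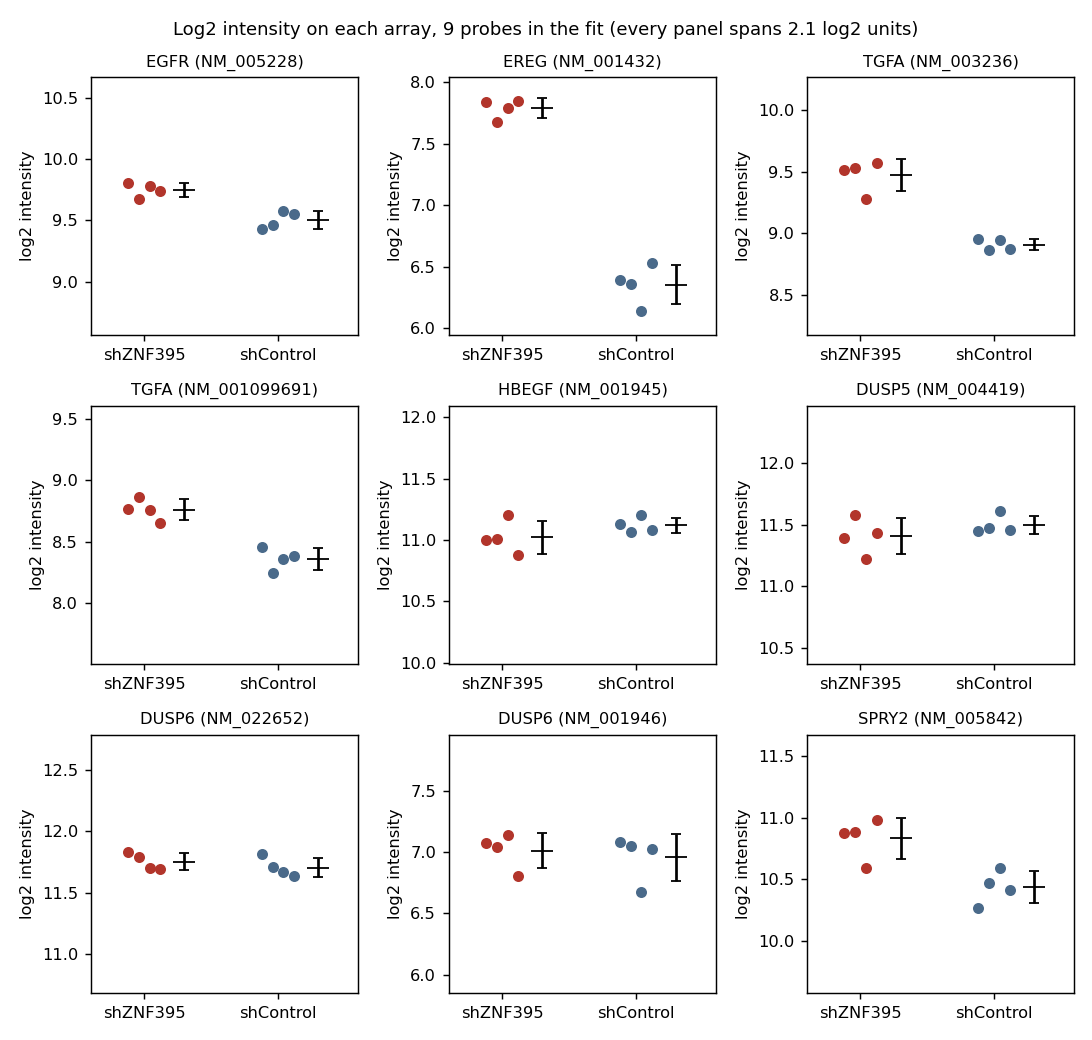
Log2 intensity on each array for the 9 probes in the fit, with the 4 shZNF395 arrays (red) left of the 4 shControl arrays (blue) in each panel and points in order of array number; the bar beside each set is the mean ± SD (n = 4). EREG lies between 7.67 and 7.85 in shZNF395 and between 6.14 and 6.53 in shControl, whereas the groups overlap for HBEGF, DUSP5 and both DUSP6 probes.

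Of the 10 genes, 9 had a paired probe, 13 probes in all, of which 9 entered the fit, each detected on all 8 arrays, and 4 were detected on no array. The 9 kept probes read EGFR, EREG, HBEGF, DUSP5 and SPRY2 once each and TGFA and DUSP6 by a pair of probes each, and 5 of them passed the test, all higher. These 5 kept their direction and their call under all 18 alternatives of processing or left-out arrays. Probe levels differ with the probe itself, so no level is compared between genes.

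The receptor was slightly higher. The EGFR probe paired with the full-length transcript NM_005228 (ILMN_1798975) read 9.80, 9.68, 9.78 and 9.74 log2 units on shZNF395 arrays 1 to 4, against 9.43, 9.46, 9.57 and 9.55 on shControl arrays 1 to 4. Every shZNF395 array was above every shControl array, with 0.10 between the nearest values. The means were 9.75 ± 0.056 and 9.50 ± 0.070 (SD, n = 4 each), a difference of 0.24 (SE 0.063, 95% confidence interval 0.11 to 0.38, limma adjusted p = 0.00677). Of all kept probes, 23.4% had a larger rise, falls not counted. Regardless of sign, the median size of difference over all kept probes was 0.26, above that of EGFR. The rise of EGFR was thus a modest one on these arrays. A probe for the shorter transcript NM_201284 was detected on 0 of 8 arrays. The entry NM_201282 could not be paired with a single probe, and the authors' deposited table gives it a value of 0.05 on that table's scale, which is close to log2 at high signal and compressed at low signal.

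Among the other ERBB receptors, with which EGFR can pair, a single gene was measured. Of ERBB2, ERBB3 and ERBB4, only ERBB3 entered the fit. A further transcript entry each of ERBB2 and ERBB3 could not be paired with a probe. The authors' deposited table gives these entries -0.08 and 0.05. ERBB3 was read by its paired probe. It averaged 5.46 ± 0.043 in shZNF395 and 5.13 ± 0.138 in shControl (SD, n = 4 each), a difference of 0.33 (SE 0.076), but it passed the detection limit on 4 of 4 shZNF395 arrays and only 1 of 4 shControl arrays, so it entered the fit through the group where it was brighter. The difference was 0.19 without background correction and 0.18 with the larger offset of 50.

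Epiregulin carried the largest change of the 7 genes in the fit. EREG (NM_001432, ILMN_1657248), a broad-specificity ligand of EGFR and ERBB4, read 7.84, 7.67, 7.80 and 7.85 on shZNF395 arrays 1 to 4, against 6.39, 6.36, 6.14 and 6.53 on shControl arrays 1 to 4. The groups were separated by 1.15 log2 units, several times the spread within either. The means were 7.79 ± 0.080 and 6.36 ± 0.161 (SD, n = 4 each), a difference of 1.43 (SE 0.086, 95% confidence interval 1.24 to 1.62, limma adjusted p = 3.12e-07). Only 1.36% of all kept probes had a larger rise, falls not counted. The probe was detected on all 8 arrays. Its difference was smaller without background correction (1.16), with the larger offset of 50 (1.14) and on the series matrix values (1.19). The authors' deposited table gives EREG 0.83, on its scale compressed at low signal, where the EREG probe lies in the controls.

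**Figure D2:**
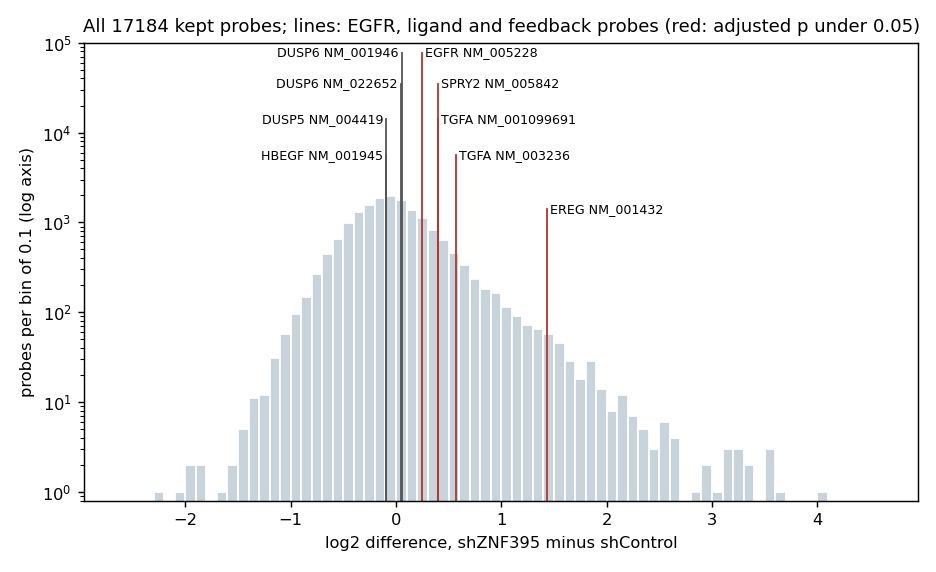
Log2 difference, shZNF395 minus shControl, of all 17184 kept probes as a histogram (bins of 0.1, probe counts on a log axis), with lines at the 9 probes of EGFR, its ligands and the feedback genes. The EREG line at 1.43 stands in the right tail, which 1.36% of probes exceed, while HBEGF, DUSP5 and DUSP6 stand near the centre.

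Amphiregulin (AREG), the ligand whose gene lies beside EREG, gave no detectable signal. Its probe (ILMN_1804421) lay between 4.25 and 4.50 on the shZNF395 arrays, against 4.23 to 4.32 on the shControl arrays, and was detected on 0 of 8. No fold is given, since both groups are below detection. The annotated starts of the 2 genes are 79991 bases apart on chromosome 4. The 250 bases before each start are shown because these neighbouring ligand genes gave different readings, one higher and one undetected. They are from RefSeq on GRCh38.p14, read 5′ to 3′ on the plus strand, at chr4:74364895-74365144 for EREG and chr4:74444886-74445135 for AREG. Capitals mark matches to the motifs searched on both strands.
EREG: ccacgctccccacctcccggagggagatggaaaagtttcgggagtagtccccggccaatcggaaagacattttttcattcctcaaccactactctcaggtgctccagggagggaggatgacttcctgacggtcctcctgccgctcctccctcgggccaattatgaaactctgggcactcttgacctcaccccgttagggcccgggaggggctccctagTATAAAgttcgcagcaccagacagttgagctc
AREG: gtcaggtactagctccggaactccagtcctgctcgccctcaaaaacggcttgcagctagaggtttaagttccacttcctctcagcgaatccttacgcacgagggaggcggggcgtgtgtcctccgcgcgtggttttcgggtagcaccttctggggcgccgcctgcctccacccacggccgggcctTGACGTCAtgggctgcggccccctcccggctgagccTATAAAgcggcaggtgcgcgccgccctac
The EREG stretch holds a TATA box (TATAAA) at positions -32 to -27, counted back from the start. The AREG stretch holds the same box at -29 to -24, and a cyclic AMP response element (CRE, TGACGTCA) at -65 to -58. TATAAA is found in 10.7% of 35116 RefSeq promoter windows of this length and the CRE in 1.65%. The other motifs searched, AP-1 (TGANTCA), the ETS motif CCGGAAGT and the CArG box of serum response elements, had no match in either stretch. A match is a description of letters, and neither a match nor its absence was tested for binding.

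Transforming growth factor alpha (TGFA), a high-affinity EGFR ligand, was higher on both of its probes. The brighter one (NM_003236, ILMN_2083946) read 9.51, 9.53, 9.28 and 9.57 on shZNF395 arrays 1 to 4, against 8.95, 8.87, 8.94 and 8.87 on shControl arrays 1 to 4. The difference was 0.57 (SE 0.074, 95% confidence interval 0.40 to 0.73, limma adjusted p = 8.68e-05), with shZNF395 array 3 the lowest of its group and still 0.33 above the highest shControl array. The other probe (NM_001099691, ILMN_1805175) read 8.77, 8.87, 8.76 and 8.66 on shZNF395 arrays 1 to 4, against 8.46, 8.25, 8.36 and 8.39 on shControl arrays 1 to 4. Here too the groups did not overlap, and the difference was 0.40 (SE 0.070, 95% confidence interval 0.24 to 0.56, limma adjusted p = 0.000667). The change on the first probe exceeded that on the second by 0.17, which did not pass an exact two-sided permutation test (p = 0.114 over 70 splits, smallest possible 0.0286). That comparison was chosen after the values were seen.

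Heparin-binding EGF-like growth factor (HBEGF), a ligand of EGFR and ERBB4, did not pass the test. It read 11.002, 11.01, 11.20 and 10.88 on shZNF395 arrays 1 to 4, against 11.13, 11.06, 11.20 and 11.08 on shControl arrays 1 to 4. The groups overlapped, and the difference of -0.10 (SE 0.077, limma adjusted p = 0.306) had a 95% confidence interval of -0.27 to 0.07. The difference was -0.16 (adjusted p = 0.0664) without shZNF395 3 and -0.05 (adjusted p = 0.623) without shZNF395 4, and it did not pass under any of the 18 alternatives. A rise of the size seen for TGFA lies outside that interval. The upstream stretches of TGFA and HBEGF are shown beside those of EREG and AREG so that the 4 ligand genes can be read together. They come from the same RefSeq table on GRCh38.p14 and are read 5′ to 3′ on the minus strand, at chr2:70553827-70554076 for TGFA (the first of its 2 annotated windows) and chr5:140346604-140346853 for HBEGF.
TGFA: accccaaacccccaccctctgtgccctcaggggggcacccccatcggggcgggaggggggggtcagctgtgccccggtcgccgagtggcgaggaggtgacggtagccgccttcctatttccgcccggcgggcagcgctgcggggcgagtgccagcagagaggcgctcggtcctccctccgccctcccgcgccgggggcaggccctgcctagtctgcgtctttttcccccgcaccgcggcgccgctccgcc
HBEGF: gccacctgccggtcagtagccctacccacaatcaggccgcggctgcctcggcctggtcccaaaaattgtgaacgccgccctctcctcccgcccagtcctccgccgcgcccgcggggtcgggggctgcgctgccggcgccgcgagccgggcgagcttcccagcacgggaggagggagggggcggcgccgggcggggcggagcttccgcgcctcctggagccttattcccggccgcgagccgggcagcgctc
Neither stretch holds a match to the 5 motifs, so no capitals appear, and the second TGFA window held none. G and C make up 75.6% of the TGFA stretch and 76.4% of the HBEGF stretch, against 58% for EREG and 65.2% for AREG.

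Of the 5 other ERBB ligands listed (EGF, BTC, EPGN, NRG1 and NRG2), 1 entered the fit. EGF itself, the founding ligand, averaged 5.82 ± 0.058 in shZNF395 and 5.21 ± 0.098 in shControl (SD, n = 4 each), a difference of 0.61 (SE 0.068). It was dim, detected on 4 of 4 shZNF395 arrays and 2 of 4 shControl arrays, and its difference was 0.36 without background correction, 0.35 with an offset of 50 and 0.39 on the series matrix values.

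The 5 genes whose values over the 8 arrays lay nearest to those of EREG, among 7741 named genes and by Euclidean distance of log2 values centred on each gene's shControl mean, were TMEM140 (distance 0.27), the ferritin pseudogene FTH1P3 (0.28), CXADR (0.28), SAT1 (0.29) and MILR1 (0.32). CXADR encodes the coxsackievirus and adenovirus receptor and SAT1 a polyamine acetyltransferase. Their log2 differences ran from 1.38 for TMEM140 to 1.54 for MILR1. FTH1P3 is near-identical in sequence to other ferritin copies, so its probe may read those too. All 5 distances rest on the same 8 arrays and mostly on the step between the groups.

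Among the feedback genes in the fit, the ERK phosphatases DUSP5 and DUSP6 did not pass and SPRY2 did. DUSP6, a cytoplasmic phosphatase selective for ERK, was read by 2 probes. The brighter one (NM_022652, ILMN_2396020) read 11.83, 11.79, 11.70 and 11.70 on shZNF395 arrays 1 to 4, against 11.81, 11.71, 11.66 and 11.64 on shControl arrays 1 to 4. The groups overlapped almost fully, with a difference of 0.05 (SE 0.065, 95% confidence interval -0.10 to 0.19, limma adjusted p = 0.553). The other (NM_001946, ILMN_1677466) read 7.07, 7.04, 7.13 and 6.80 on shZNF395 arrays 1 to 4, against 7.08, 7.05, 6.67 and 7.03 on shControl arrays 1 to 4. Its difference was also 0.05 (SE 0.105, 95% confidence interval -0.18 to 0.29, limma adjusted p = 0.682), and it was -0.04 without shControl 3, the lowest array, and -0.08 without both arrays numbered 3.

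DUSP5, a nuclear phosphatase selective for ERK (ILMN_1656501), read 11.39, 11.58, 11.22 and 11.43 on shZNF395 arrays 1 to 4, against 11.45, 11.48, 11.61 and 11.46 on shControl arrays 1 to 4. The groups overlapped, with the lowest value on shZNF395 3 and the highest on shControl 3. The difference was -0.09 (SE 0.082, 95% confidence interval -0.27 to 0.09, limma adjusted p = 0.355), and 0.01 without both arrays numbered 3. DUSP4, a nuclear phosphatase of ERK and other MAP kinases, was below detection on all 8 arrays with both of its probes. Its first probe (NM_001394) lay between 4.58 and 5.18 in shZNF395 and between 4.36 and 4.73 in shControl, and its second (NM_057158) between 5.05 and 5.19 in shZNF395 and between 4.95 and 5.17 in shControl. The second probe had a detection p of 0.0104 to 0.0377 over the 8 arrays, not far above the limit of 0.01 used here. Neither probe allows a fold.

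**Figure D3:**
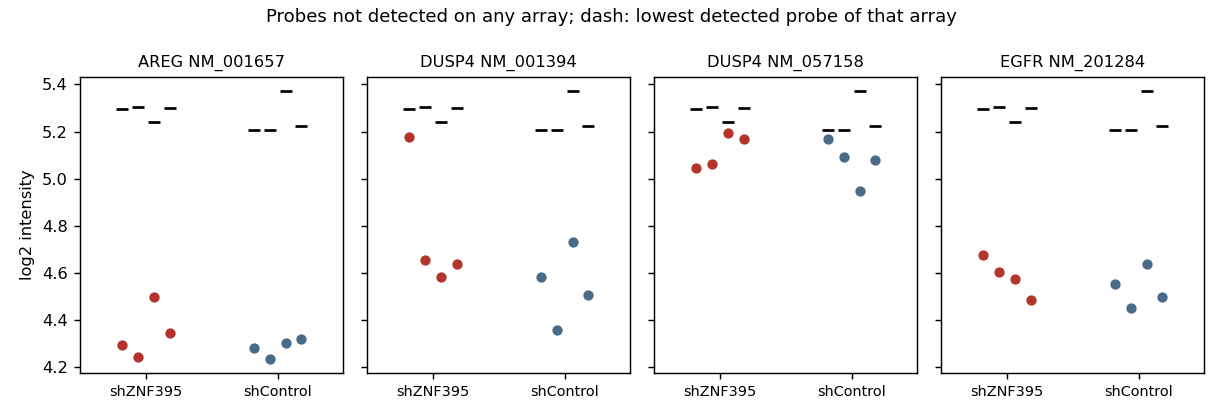
Log2 intensity on each array of the 4 probes detected on no array (AREG, both DUSP4 probes and the NM_201284 probe of EGFR), shZNF395 (red) left of shControl (blue), with a dash at the lowest signal among the detected probes of that array. All points lie below their dash, the closest being DUSP4 values of up to 5.19.

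SPRY2, an ERK-induced inhibitor of receptor tyrosine kinase signalling (NM_005842, ILMN_2089329), read 10.88, 10.89, 10.59 and 10.98 on shZNF395 arrays 1 to 4, against 10.27, 10.47, 10.59 and 10.42 on shControl arrays 1 to 4. The groups met without overlapping: shZNF395 3 was the lowest of its group, shControl 3 the highest of its own, and only 0.0023 lay between them. The means were 10.83 ± 0.168 and 10.44 ± 0.133 (SD, n = 4 each), a difference of 0.40 (SE 0.096, 95% confidence interval 0.18 to 0.61, limma adjusted p = 0.00486). Without both arrays numbered 3 the difference was 0.53 (adjusted p = 0.000355), and over all alternatives the adjusted p ran from 0.000355 to 0.0208. SPRY4, its relative, is entered in the authors' deposited table with a value of 0.000414, which matched no single probe, and no value per array is given here.

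Around these 10 genes, 70 other genes of the pathway were listed by role, and 37 of them had a kept probe. With limma, 15 were higher and 11 lower, and the other 11 did not pass. Their median log2 difference was 0.05. Of the 37, 40.5% were thus higher and 29.7% lower, beside 25.3% and 30.0% of all kept probes. With detection required on all 8 arrays, 12 were higher and 11 lower, since ERBB3, EGF and EGR2 leave the fit. The lists were chosen with earlier results of these data known.

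**Figure D4:**
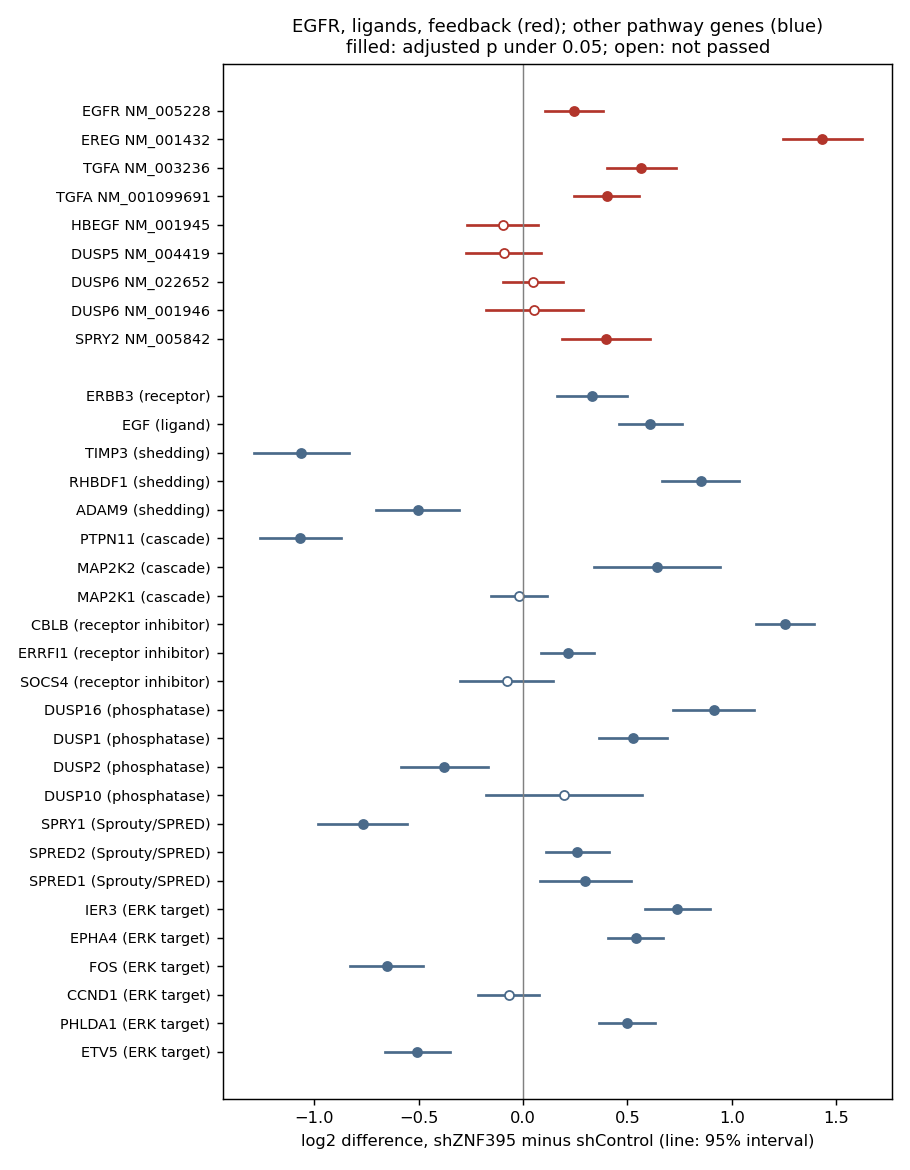
Log2 difference, shZNF395 minus shControl, with its 95% confidence interval (line) for the 9 probes of EGFR, its ligands and the feedback genes (red, top) and for other named pathway genes (blue). Filled points have a limma adjusted p under 0.05 and open points do not; EREG at 1.43 and CBLB at 1.26 lie farthest right, and PTPN11 at -1.07 and TIMP3 at -1.06 farthest left.

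The measured genes that govern the release of the ligands changed in both directions. Of 7 listed, 3 were measured, with 1 higher and 2 lower, beside 25.3% and 30.0% of all kept probes. The proteases ADAM10 and ADAM17 and RHBDF2 could not be paired with a probe, and the paired ADAM12 probe was detected on 0 of 8 arrays. The authors' deposited table gives ADAM10 -0.08, ADAM17 -0.01 and the entries of RHBDF2 0.12 and 0.08, on its own scale. TIMP3, an inhibitor of ADAM proteases, averaged 8.43 ± 0.174 in shZNF395 and 9.49 ± 0.161 in shControl (SD, n = 4 each), a difference of -1.06 (SE 0.103, limma adjusted p = 1.08e-05). RHBDF1, which encodes iRhom1, a partner in the maturation of ADAM17, rose by 0.85 (SE 0.083, adjusted p = 1.11e-05). The protease gene ADAM9 had a difference of -0.51 (SE 0.090, adjusted p = 0.000714). The values of these 3 genes did not overlap between the groups, which also held for 49.0% of all kept probes.

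In the cascade from the adaptors to ERK, 10 of 19 genes were measured, with 1 higher, 3 lower and 6 that did not pass. Among all kept probes, 25.3% were higher and 30.0% lower. PTPN11, which encodes the phosphatase SHP2 that links receptors to RAS, averaged 10.52 ± 0.178 in shZNF395 and 11.58 ± 0.051 in shControl (SD, n = 4 each), a difference of -1.07 (SE 0.087, limma adjusted p = 3.09e-06). MAP2K2, which encodes the ERK kinase MEK2, rose by 0.64 (SE 0.136, adjusted p = 0.00221), and its relative MAP2K1 gave -0.02 (adjusted p = 0.794).

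Of 6 inhibitors that act on the receptor, 3 were measured, with 2 higher and 1 that did not pass. Among all kept probes, 25.3% were higher and 30.0% lower. CBLB, a ubiquitin ligase that marks EGFR for degradation, averaged 8.05 ± 0.067 in shZNF395 and 6.80 ± 0.059 in shControl (SD, n = 4 each). That is a rise of 1.26 (SE 0.063, limma adjusted p = 8.73e-08), or 2.39-fold. ERRFI1, whose product MIG6 binds the EGFR kinase domain, rose by 0.21 (SE 0.058, adjusted p = 0.00873), and SOCS4 gave -0.08 (adjusted p = 0.539).

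Of 7 other MAP kinase phosphatases listed, 4 were measured, with 2 higher, 1 lower and 1 that did not pass. Among all kept probes, 25.3% were higher and 30.0% lower. Whether these 4 phosphatases differ from DUSP5 and DUSP6 was not tested. DUSP16, which acts on the stress kinases JNK and p38, rose by 0.91 (SE 0.088, limma adjusted p = 9.98e-06). DUSP1, an immediate-early phosphatase of the same kinases and of ERK, rose by 0.53 (SE 0.073, adjusted p = 0.000134). DUSP2 had a difference of -0.38 (SE 0.094, adjusted p = 0.00569), although its groups overlapped because shZNF395 2 read 5.94 among values near 5.58. Without that array the difference was -0.47, and it was -0.24 both without background correction and with an offset of 50. DUSP10 gave 0.20 (adjusted p = 0.35) and was detected on 2 arrays of each group.

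The relatives of SPRY2 did not all follow it. Of 7 Sprouty, SPRED and RAS inhibitor genes, 3 were measured, with 2 higher and 1 lower, beside 25.3% and 30.0% of all kept probes. SPRY1, a Sprouty protein like SPRY2, averaged 8.22 ± 0.184 in shZNF395 and 8.98 ± 0.115 in shControl (SD, n = 4 each), a difference of -0.77 (SE 0.097, limma adjusted p = 6.91e-05), opposite in sign to SPRY2. A further transcript entry of SPRY1 could not be paired with a probe. The authors' deposited table gives that entry -0.20 on its own scale. SPRED2, which restrains RAF activation, rose by 0.26 (SE 0.069, adjusted p = 0.00797). SPRED1 rose by 0.30 (SE 0.099, adjusted p = 0.025) with groups that overlapped. Its call was lost without shZNF395 1, 2 or 4, without shControl 2 or 4 and under 3 other alternatives, with an adjusted p of up to 0.0856 over a range that begins at 0.00118.

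Of 16 genes listed as induced by ERK, 12 were measured, and the median of their log2 differences was 0.13; limma called 5 higher (41.7%) and 4 lower (33.3%), beside 25.3% and 30.0% of all kept probes. IER3, an immediate-early survival gene, rose by 0.74 (SE 0.070, limma adjusted p = 8.81e-06), and the ephrin receptor gene EPHA4 by 0.54 (SE 0.060, adjusted p = 2.62e-05). FOS, a subunit of the transcription factor AP-1, averaged 9.94 ± 0.095 in shZNF395 and 10.59 ± 0.125 in shControl (SD, n = 4 each), a difference of -0.65 (SE 0.079, adjusted p = 5.17e-05). Cyclin D1 (CCND1) gave -0.07 (adjusted p = 0.394). EGR2 is counted among the higher genes but was detected on 4 of 4 shZNF395 arrays and 0 of 4 shControl arrays, so it entered the fit only through the group where it was brighter; against the lowest detected signal it was at least 1.44-fold higher.

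A set of 10 of these feedback and target genes forms a published score of MAPK pathway activity (PHLDA1, SPRY2, SPRY4, DUSP4, DUSP6, CCND1, EPHA2, EPHA4, ETV4 and ETV5), here used as a list only. Limma called 3 of the 7 measured genes higher and 2 lower, beside 25.3% and 30.0% of all kept probes. The median log2 difference of the 7 was 0.05. Without the genes already described as feedback inhibitors, 2 of 5 rose, 2 fell and the median was -0.07. PHLDA1 rose by 0.50 (SE 0.060, limma adjusted p = 5.34e-05) by the brighter of its probes and gave 0.08 (adjusted p = 0.331) by the dimmer. ETV5, an ETS factor downstream of ERK, had a difference of -0.51 (SE 0.071, adjusted p = 0.000139) on its brighter probe and of -0.76 (SE 0.084) on the other. The score genes thus held both directions, with PHLDA1, EPHA4 and SPRY2 higher and ETV5 and EPHA2 lower.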

How the data were processed

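Total RNA from 8 samples, 4 shZNF395 and 4 shControl by the labels, was measured on Illumina BeadChips. Per the file headers, the deposited non-normalized table holds 47323 probes, each with its signal intensity and detection p-value on every array. The deposited series matrix holds intensity after normalization, on a linear scale, and the submitters' processing notes name lumi. The authors' deposited table gives 1 fold change for each of 39747 transcripts.

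No file pairs probes with transcripts, so pairs were recovered by matching the deposited fold changes, within 1e-09, to differences of group means of the series matrix values after an inverse hyperbolic sine transform. Starting values of that transform were found by trial on a few pairs that general knowledge of the array made likely, then refitted on the deposited values alone. This matched 1 probe to 33131 entries (83.4%, against 0.0386% after a shift). For ETV5 and PHLDA1 the mean of 2 probes was matched. Symbols for RefSeq accessions were taken from a GRCh38.p14 gene table, and all coordinates and sequences are from RefSeq.

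Intensities were background-corrected with limma 3.58.1 in R 4.3.3 (normexp with negative controls estimated through the detection p-values, offset 16), quantile normalized and put on a log2 scale. Log2 values were thus computed here from the deposited intensities. Probes with detection p under 0.01 on at least 4 arrays were kept (17184). The lmFit and eBayes functions gave each difference (shZNF395 minus shControl) and a two-sided p, adjusted over all kept probes by Benjamini-Hochberg. Only 4 arrays per group limit the precision. A probe below detection on every array of 1 group has only a bound: the mean of the brighter group is set against a floor, which on each array is the lowest detected signal or, if greater, the probe's own. The fit alone was also run on simulated data. That run had few changed probes and did not cover background correction or normalization.

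Each gene's brightest kept probe stands for it. Named genes are all probes of the 10 genes; up to 3 genes of each pathway list with the smallest p among those past the test and 1 that did not pass; the 5 nearest to the largest rise; and ZNF395. Some genes under this rule are withheld and not reported here. The genes and lists were chosen with earlier results of these data known. Same-numbered arrays did not deviate together (correlations from -0.42, for the arrays numbered 3, to 0.01), so the numbers were not used as pairs. Alternatives covered background correction, normalization, series matrix values, the detection filter, array weights, thresholds, the replicate block, and arrays left out. Python 3.11.15, numpy 2.4.6, scipy 1.17.1, pandas 2.3.3 and matplotlib 3.10.9 were used.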

Additional observations from a re-analysis of the deposited data

Results flagged for a closer look

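Of 70 sets of 4 values examined, 5 held 1 value well apart from the remaining 3, which chance gives in about 1 in 20. DUSP5 read 11.6117 on shControl 3, against 11.45 to 11.48 on the other shControl arrays. The dimmer DUSP6 probe read 6.67154 on shControl 3, against 7.03 to 7.08 on the others. DUSP2 read 5.94428 on shZNF395 2, against 5.57 to 5.58 on the other shZNF395 arrays. Detected probes numbered 17191 on shZNF395 3, against 16834 to 16882 on the other shZNF395 arrays, and 16476 on shControl 3, against 17265 to 17406 on the other shControl arrays. The part of these arrays in the results on DUSP5, DUSP6 and SPRY2 is given as the values without them; the cause was not tested.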

How the results depend on the processing

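The 5 called probes of EGFR, EREG, TGFA and SPRY2 kept their direction and call under all 18 alternatives, with log2 differences from 1.14 to 1.499 for EREG, 0.22 to 0.29 for EGFR, 0.53 to 0.65 and 0.36 to 0.45 for TGFA, and 0.34 to 0.53 for SPRY2. Requiring a log2 difference of at least 0.5 left 3689 of 9512 called probes, 2 of the 4 higher genes (EREG and TGFA), and 9 higher and 7 lower pathway genes, since fewer genes can pass. Leaving out 1 array called 8598 to 9685 probes, with 4 of the 7 genes higher each time, and 13 to 15 higher and 10 to 11 lower pathway genes. With the replicate number as a block, 8540 probes were called, 4 genes were higher and 0 lower, and pathway genes counted 14 higher and 10 lower; only SPRED1 lost its call among the named genes (adjusted p = 0.0741). Same-numbered arrays did not deviate together, and 0 of the 4 numbers correlated best with its own. Differences that changed sign all belonged to genes that did not pass: DUSP5 at 0.0051 without both arrays numbered 3; the dimmer DUSP6 probe at -0.0112 with array weights, -0.0404 without shControl 3 and -0.0809 without both arrays numbered 3 (range with 1 array left out -0.0404 to 0.125); MAP2K1 at 0.0013 with cyclic loess and 0.0016 without shControl 1 (range -0.0439 to 0.0016); and DUSP10 at -0.015 without both arrays numbered 3. The cause was not tested. The alternative without both arrays numbered 3 was chosen after the data were seen. Cyclic loess raised the share of calls that were higher to 53.5%, against 45.8%. AREG, DUSP4 and the second EGFR probe lay below detection, so a change in them was not detectable here. No slide is given, so a slide block was not run.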
